A study of Mus musculus with 8 samples.

Results

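Kupffer cells are the macrophages that live in the sinusoids of the liver. Described here are 9 genes that mark these cells, or macrophages in general: Clec4f, Vsig4, Timd4, Marco, Cd5l, Cd163, Adgre1, Csf1r and Cd68. They were taken by symbol from a table of read counts for 24317 genes, and all 9 were found, each in 1 row. The RNA came from flash-frozen whole livers of C57BL/6 mice, with 4 libraries of mice fed normal chow and 4 of mice that ate chow with 6% NaCl for 6 weeks. Sex, age and the salt content of the normal chow were left unstated in the labels. The labels do not tie each library to its own animal, so p-values measure only the spread between these samples, which may be in part technical. Titles of the high-salt libraries start with N. The groups follow the diet label, and if the labels had been exchanged every direction given here would turn.

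Kupffer cells are seeded before birth and renew themselves in place. Their survival depends on the growth factor receptor CSF1R, and factors such as PU.1, LXR alpha and ID3 maintain their identity. They take up bacteria, dying cells and haemoglobin from the blood through surface receptors, among them MARCO, VSIG4, TIMD4 and CD163. When the liver is injured, blood monocytes can enter and become macrophages that at first lack TIMD4 and other resident markers.

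Marco had the largest difference of the 9 genes. It encodes a scavenger receptor with a collagen-like stalk that binds bacteria and modified lipoproteins. Its level was 7.58 ± 3.50 CPM on normal chow and 17.02 ± 4.42 CPM on high salt (mean ± SD, n = 4 per group), where CPM are counts scaled to a common library size with TMM factors. The log2 fold changes of the other 8 genes ran from -0.43 for Cd163 to 0.01 for Cd5l. By edgeR's quasi-likelihood test with Benjamini-Hochberg adjustment, 0 of the 9 genes passed an adjusted p of 0.05, where 0.3% of the 13341 tested genes did. At an unadjusted p below 0.05 there were 3 of the 9, with Marco higher and Clec4f and Cd163 lower, against 10.9% of all tested genes. DESeq2 called 1 of the 9, Marco, and 1.41% of the 15344 genes to which it gave an adjusted p. limma-voom called 0 of the 9 and 0.112% of the 13341 tested genes.

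The sequences before Marco, Cd163 and Clec4f are shown because Marco and Cd163 had the largest differences, in opposite directions, and Clec4f is the lectin most used to mark mouse Kupffer cells. Each is the 250 bases before the start that RefSeq annotates (build GRCm38.p6), 5′ to 3′ on the gene's strand. The deposited table places the start of Clec4f farther upstream, so the last 71 bases of its window lie inside the gene as given there. The windows of the other 6 genes hold 0 such bases. Capitals mark GAGGAA or its reverse complement, a core that the macrophage factor PU.1 is known to bind. The windows are chr1:120505025-120505274 on the minus strand, chr6:124304401-124304650 on the plus strand and chr6:83656117-83656366 on the minus strand.
Marco: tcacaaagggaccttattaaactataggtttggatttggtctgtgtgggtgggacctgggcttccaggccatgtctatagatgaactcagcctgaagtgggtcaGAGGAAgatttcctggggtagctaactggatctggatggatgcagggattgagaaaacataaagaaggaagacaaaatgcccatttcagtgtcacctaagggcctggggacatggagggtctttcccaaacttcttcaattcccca
Cd163: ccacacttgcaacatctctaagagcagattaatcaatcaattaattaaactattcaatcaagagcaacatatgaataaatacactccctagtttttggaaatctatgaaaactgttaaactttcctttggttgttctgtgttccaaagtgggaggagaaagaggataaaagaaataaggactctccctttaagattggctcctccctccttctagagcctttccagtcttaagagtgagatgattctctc
Clec4f: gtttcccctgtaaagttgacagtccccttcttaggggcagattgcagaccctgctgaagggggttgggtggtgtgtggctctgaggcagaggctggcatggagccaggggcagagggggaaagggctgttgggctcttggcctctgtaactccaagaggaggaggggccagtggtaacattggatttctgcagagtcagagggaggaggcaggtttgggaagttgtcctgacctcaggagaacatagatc

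Windows were used for 7 of the 9 genes. For the 9 genes, windows on chromosome 18, where Csf1r lies, were left out, and no window was matched to Adgre1. GAGGAA, on either strand, occurred before 4 of the 7, which were Marco (bases 146 to 141 before the start), Cd5l, Cd68 and Vsig4, and was not in the windows of Cd163, Clec4f and Timd4. These letters are in 23.3% of the 32851 windows of this length in the table. TGGAAA, the core of NFAT sites, was in the Cd163 window at bases 155 to 150 and, on the other strand, at bases 31 to 26, and in 18.6% of all windows. The composite site of PU.1 with an IRF factor was in the Timd4 window and in no other of the 7, and in 2.3% of all windows. The AP-1 site TGANTCA was in the Cd68 window, and in 6.75% of all windows. TATAAA, the TATA box, was in 0 of the 7 and in 12.4% of all windows. Both strands were searched, and GAGGAA can overlap the composite site. A match is a run of letters and does not show binding.

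All 9 genes passed the filter on low counts, with 71 to 3497 reads per gene and library. Per kilobase of exon, the order of levels in normal chow was Cd5l, Clec4f, Vsig4, Csf1r, Adgre1, Cd68, Cd163, Timd4 and Marco. Cd5l was at 74.4 ± 5.62 RPKM, Clec4f at 54.9 ± 3.54 RPKM and Vsig4 at 47.0 ± 4.07 RPKM, CPM divided by exon length in kilobases. Cd5l lay above Clec4f in every normal-chow library, while the ranges of Clec4f and Vsig4 overlapped. Csf1r, Adgre1 and Cd68 followed at 11.9 ± 0.580 RPKM, 10.9 ± 1.66 RPKM and 8.43 ± 0.461 RPKM, with overlapping neighbours. Cd163 was at 6.58 ± 0.906 RPKM, apart from both of its neighbours. Timd4 at 4.14 ± 0.328 RPKM and Marco at 3.94 ± 1.82 RPKM overlapped. In high salt Marco stood at rank 6 with 8.84 ± 2.29 RPKM, its range overlapping those of Adgre1 (9.69 ± 1.28 RPKM) and Cd68 (7.63 ± 1.21 RPKM). The other 8 genes kept their order. The exon length covers all annotated transcripts, which lowers the value of a gene with long minor isoforms.

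**Figure D1:**
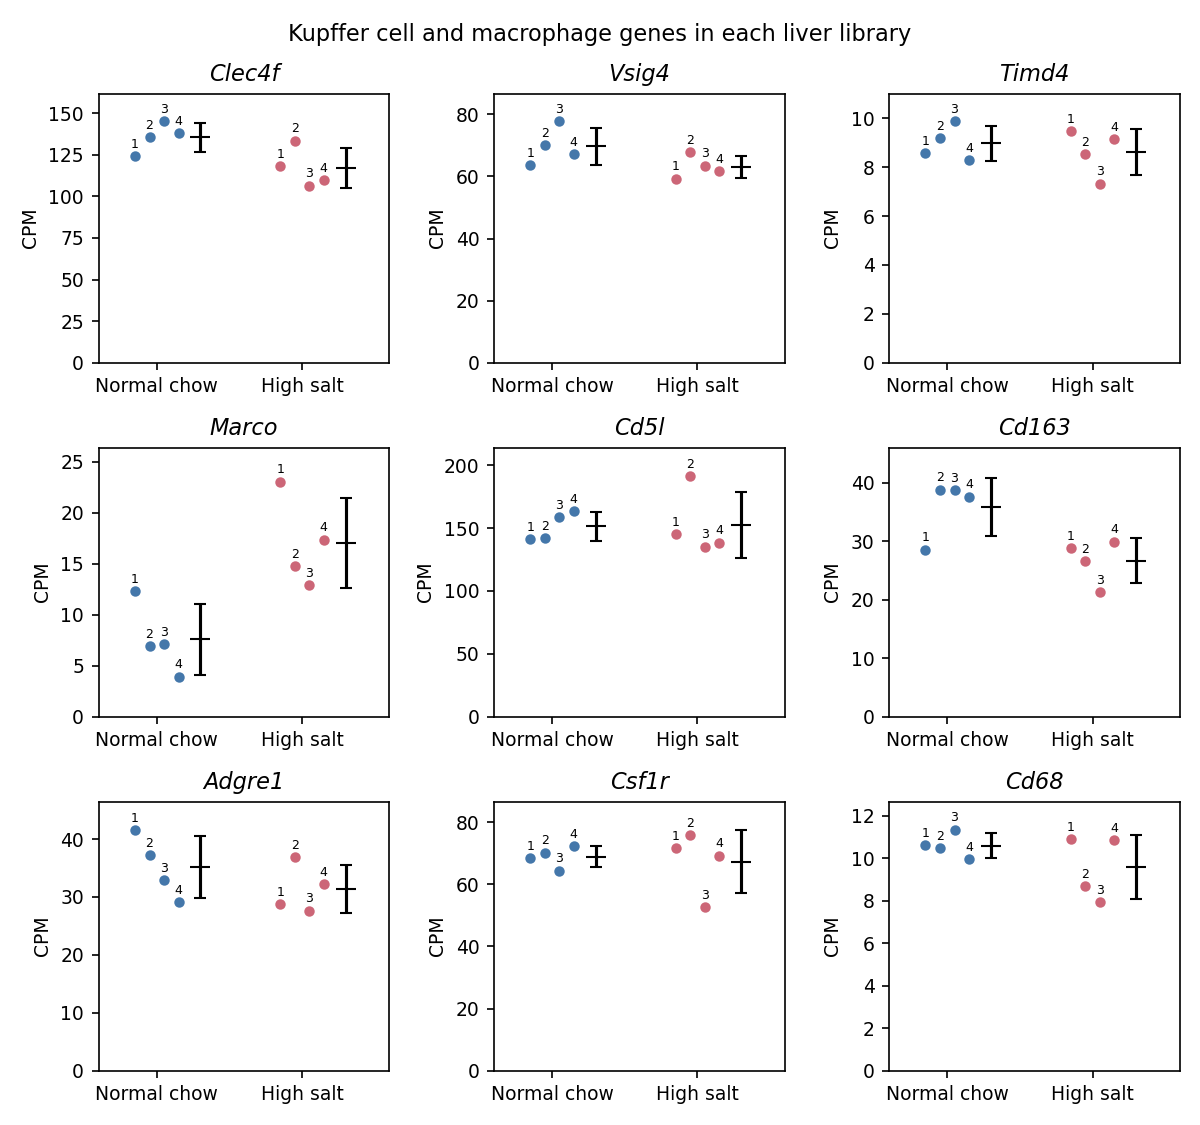
Level of each of the 9 genes in CPM (vertical axis) in the 4 normal-chow and 4 high-salt libraries, 1 point per library, with the mean ± SD. Marco lies between 3.92 and 12.3 CPM in normal chow and between 12.9 and 23.1 CPM in high salt, and the groups of the other 8 genes overlap.

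Marco (ENSMUSG00000026390, chromosome 1, 120474538 to 120505024, minus strand, GRCm38) was at 12.3, 6.94, 7.10 and 3.92 CPM in normal chow 1 to 4. In high salt 1 to 4 it was at 23.1, 14.8, 12.9 and 17.4 CPM. All high-salt libraries lay above all normal-chow libraries, with normal chow 1 just under high salt 3. The log2 fold change was 1.17 ± 0.33 (SE; 95% interval 0.41 to 1.93), a 2.25-fold higher level, with an edgeR adjusted p = 0.248. Marco was the 1 gene of the 9 whose groups did not overlap. Of all tested genes, 6.36% had no overlap, 2.98% with high salt higher.

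Marco also varied most among the 9 genes. Its biological coefficient of variation in the edgeR fit was 31.9%, while those of the other 8 ran from 10.1% to 13.4%. The highest library had 5.88 times the level of the lowest for Marco, and 1.31 to 1.82 times for the others. The call depended on the test and on 1 library. The adjusted p was 0.00420 by DESeq2 and 0.120 by limma-voom, and edgeR without normal chow 1 gave a log2 fold change of 1.51 with an adjusted p = 0.0454. In the authors' deposited table Marco has a log2 fold change of 1.16 and an adjusted p of 0.00419. It is the 1 gene of the 9 that the authors' deposited table marks as significant, among 52 genes so marked. Of the 15342 genes with an adjusted p there, 217 were below 0.05, so the mark asks for more than that threshold. The authors' values for Marco come from the same counts and nearly equal the DESeq2 values here, so they are not separate support.

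Cd163 (ENSMUSG00000008845, chromosome 6, 124304656 to 124330527, plus strand) encodes the receptor that clears haemoglobin bound to haptoglobin, and like Marco it holds scavenger receptor cysteine-rich domains. Its levels were 28.6, 38.8, 38.7 and 37.7 CPM in normal chow 1 to 4 and 28.8, 26.6, 21.3 and 29.9 CPM in high salt 1 to 4. The high-salt libraries lay below normal chow 2, 3 and 4, while normal chow 1 lay among them, so the groups overlapped. The log2 fold change was -0.43 ± 0.12 (95% interval -0.70 to -0.17; edgeR adjusted p = 0.191). The adjusted p was 0.0150 in the edgeR fit with no filter on low counts and 0.0907 by DESeq2. Without normal chow 1 the log2 fold change was -0.53, with an edgeR adjusted p = 0.0587.

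Cd5l (ENSMUSG00000015854, chromosome 3, 87357881 to 87371073, plus strand) encodes AIM, a secreted protein of tissue macrophages with the same kind of domain. It was at 141, 142, 159 and 164 CPM in normal chow 1 to 4 and at 145, 191, 135 and 138 CPM in high salt 1 to 4. High salt 2 was the highest of all 8 libraries, and the other 3 high-salt libraries lay within or below the normal-chow range. Its log2 fold change was 0.01 ± 0.11 (95% interval -0.23 to 0.25; edgeR adjusted p = 0.984), and -0.12 without high salt 2.

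Clec4f (ENSMUSG00000014542, chromosome 6, 83644542 to 83656187, minus strand), a C-type lectin of mouse Kupffer cells, was at 124, 135, 145 and 138 CPM in normal chow 1 to 4. In high salt 1 to 4 it was at 118, 134, 107 and 109.9 CPM. High salt 1, 3 and 4 lay below every normal-chow library, and high salt 2 lay among them. High salt over normal chow gave a log2 fold change of -0.21 ± 0.09 (95% interval -0.40 to -0.02; edgeR adjusted p = 0.409).

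Vsig4 (ENSMUSG00000044206, chromosome X, 96247203 to 96293438, minus strand) encodes CRIg, a complement receptor through which Kupffer cells catch bacteria coated with C3 fragments. It was at 63.7, 70.02, 77.9 and 67.2 CPM in normal chow 1 to 4 and at 59.3, 67.8, 63.5 and 61.7 CPM in high salt 1 to 4. The ranges overlapped, with a log2 fold change of -0.14 ± 0.08 (95% interval -0.32 to 0.03; edgeR adjusted p = 0.566), and -0.09 without normal chow 3. Timd4 (ENSMUSG00000055546, chromosome 11, 46810800 to 46844332, plus strand) encodes a receptor for phosphatidylserine on dying cells. It was at 8.58, 9.20, 9.89 and 8.29 CPM in normal chow 1 to 4 and at 9.48, 8.54, 7.33 and 9.15 CPM in high salt 1 to 4. Its groups were interleaved. Its log2 fold change was -0.06 ± 0.12 (95% interval -0.32 to 0.20; edgeR adjusted p = 0.909), and 0.00 with libraries scaled by total counts and 0.01 without high salt 3.

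The last 3 genes are expressed by macrophages of many tissues. Adgre1 (ENSMUSG00000004730, chromosome 17, 57358686 to 57483529, plus strand) encodes the surface protein F4/80. It was at 41.5, 37.3, 32.9 and 29.1 CPM in normal chow 1 to 4 and at 28.8, 36.9, 27.6 and 32.3 CPM in high salt 1 to 4. The groups overlapped, with a log2 fold change of -0.16 ± 0.12 (95% interval -0.42 to 0.09; edgeR adjusted p = 0.675). On leaving out normal chow 1 it was -0.08, on leaving out high salt 2 -0.26 and on leaving out high salt 3 -0.11.

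Csf1r (ENSMUSG00000024621, chromosome 18, 61105572 to 61132149, plus strand) encodes the receptor for CSF1 and IL-34. It was at 68.5, 70.2, 64.4 and 72.4 CPM in normal chow 1 to 4 and at 71.7, 75.9, 52.6 and 69.2 CPM in high salt 1 to 4. High salt 3 was the lowest of the 8 libraries, and the other 3 high-salt libraries lay within or above the normal-chow range. The log2 fold change was -0.03 ± 0.10 (95% interval -0.25 to 0.19; edgeR adjusted p = 0.952), and 0.03 with total-count scaling and 0.07 without high salt 3. Exons of Csf1r overlap those of Hmgxb3 on the opposite strand in GENCODE M21, and the strand setting of the counting, not given in the sources used here, decides where shared reads went.

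Cd68 (ENSMUSG00000018774, chromosome 11, 69664213 to 69666153, minus strand) encodes a glycoprotein of macrophage lysosomes. It was at 10.6, 10.5, 11.3 and 9.94 CPM in normal chow 1 to 4 and at 10.9, 8.70, 7.92 and 10.9 CPM in high salt 1 to 4. High salt 2 and 3 lay below the normal-chow range and high salt 1 and 4 within it. This gave a log2 fold change of -0.14 ± 0.13 (95% interval -0.41 to 0.13; edgeR adjusted p = 0.750), which was -0.21 without high salt 1 and -0.06 without high salt 3.

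**Figure D2:**
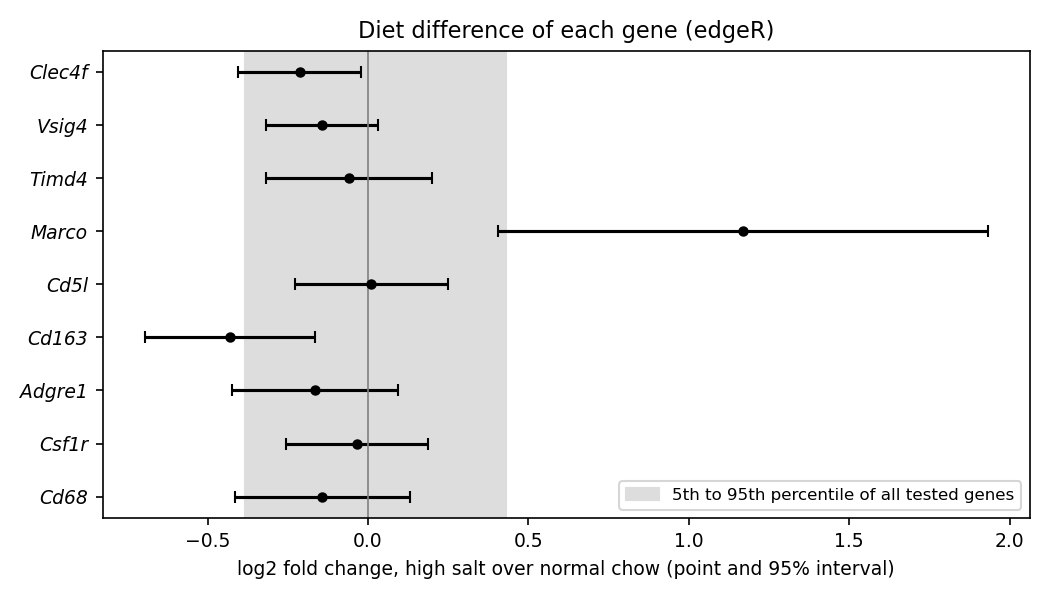
Log2 fold change of each gene, high salt over normal chow (horizontal axis), as the edgeR estimate with its 95% interval, over the spread of all tested genes. The interval of Marco (0.41 to 1.93) lies above 0, those of Cd163 and Clec4f lie below 0, and those of the other 6 genes include 0. Each interval is for its gene alone and is not adjusted for the number of genes tested. The edgeR adjusted p was 0.248 for Marco, 0.191 for Cd163 and 0.409 for Clec4f.

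The median log2 fold change of the 9 genes was -0.14, and 7 of the 9 values were below 0. Without high salt 3 the median was -0.06, and Timd4 (0.01) and Csf1r (0.07) were above 0. With total-count scaling these 2 genes were also above 0 (0.00220 and 0.0299). Over all tested genes the median was 0.01, with a middle range from -0.11 (25th percentile) to 0.13 (75th percentile). In bulk liver RNA, the number of cells of a type and the RNA per cell cannot be told apart.

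To set the genes against one another without scaling the libraries, counts were also taken as a percent of the Clec4f counts of the same library, a measure chosen after the values were seen. Marco was at 9.94, 5.13, 4.89 and 2.84% of Clec4f in normal chow 1 to 4 and at 19.5, 11.1, 12.1 and 15.8% in high salt 1 to 4. Cd5l was at 114, 105, 109 and 119% in normal chow and at 122, 143, 127 and 126% in high salt. These were the 2 genes of 8 whose ratios did not overlap, both higher in high salt. Clec4f itself was lower in 3 high-salt libraries, and the ratios of 13.1% of all tested genes lay higher in every high-salt library. Cd163 was at 26.4 ± 2.41% of Clec4f in normal chow and 22.9 ± 3.58% in high salt, with overlap.

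**Figure D3:**
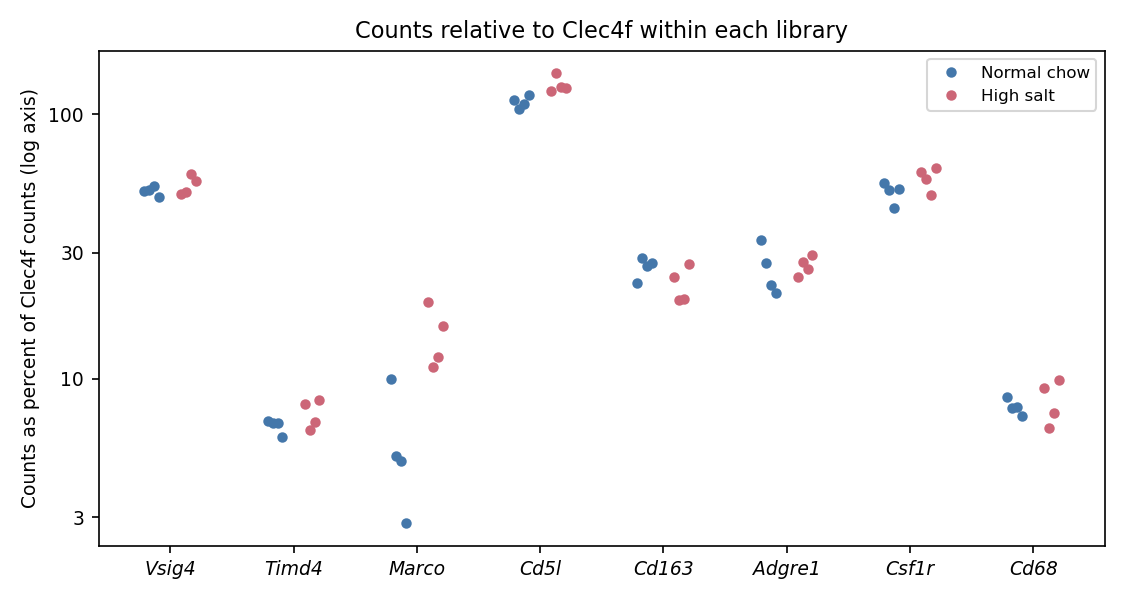
Counts of the other 8 genes as a percent of the Clec4f counts of the same library (log vertical axis) by diet, 1 point per library. Marco lies between 2.84 and 9.94% in normal chow and between 11.1 and 19.5% in high salt.

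A pair of libraries stood apart in several of these genes. Normal chow 1 had the highest Marco and the lowest Cd163 of its group. High salt 3 had the lowest value of its group for 8 of the 9 genes, Vsig4 being the exception. The 9 genes summed to 499 to 546 CPM on normal chow and to 435 to 564 CPM on high salt. Total counts were 16620368 to 18639685 per library and did not differ between the diets beyond their spread (exact permutation p = 0.400, two-sided, n = 4 per group, smallest possible p = 0.0286). Mitochondrial transcripts took 9.004% of counts in high salt 3 and 7.49 to 8.61% in the other 7. Fits that leave out each library in turn are summarised with the processing settings. The cause of these library differences was not tested.

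The genes nearest to the mean standardized log2 CPM profile of the 9, over the 8 libraries, were Gmeb1, Bptf, Atp8a1, Wdfy2 and Adgrg6, at root mean square distances of 0.0932, 0.202, 0.357, 0.373 and 0.376. All 5 had their lowest value in high salt 3. Among the 9 genes, Timd4 (0.564) and Clec4f (0.577) lay closest to that mean and Marco (1.48) farthest from it, although each is part of the mean. The distances are a description over 8 libraries and 13341 genes.

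Other surface and secreted Kupffer cell genes made a list of 12, all tested. edgeR, DESeq2 and limma-voom called 0. An unadjusted p under 0.05 was found for 2, both lower, with a median log2 fold change of -0.12. Siglec1, the sialic acid receptor sialoadhesin, was at 18.5, 19.97, 19.8 and 18.9 CPM in normal chow 1 to 4 and at 16.7, 15.8, 11.2 and 16.5 CPM in high salt 1 to 4. Its groups did not overlap, as for 3.37% of all tested genes on the lower side, and the log2 fold change was -0.36 ± 0.12 (edgeR adjusted p = 0.280). Fcna, a ficolin of Kupffer cells, was at 15.6, 24.7, 24.5 and 23.6 CPM in normal chow 1 to 4 and at 17.2, 15.4, 18.005 and 16.5 CPM in high salt 1 to 4. Normal chow 1 lay among the high-salt libraries, with a log2 fold change of -0.40 ± 0.13 (edgeR adjusted p = 0.283), and -0.53 (adjusted p = 0.0302) without normal chow 1. Clec1b, the lectin CLEC-2, was at 17.5 ± 2.66 CPM on normal chow and 17.3 ± 3.22 CPM on high salt, and Hmox1, haem oxygenase 1, at 16.7 ± 2.28 CPM on normal chow and 17.6 ± 4.31 CPM on high salt. Both were chosen after their values were seen.

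Transcription factors of macrophage identity (12 tested) had 0 calls by edgeR, DESeq2 and limma-voom, 1 lower gene at an unadjusted p below 0.05 and a median of 0.05. Irf8, a factor of the monocyte and dendritic lineages, had 0.26 ± 0.14 (edgeR adjusted p = 0.548). Spi1, Nr1h3 and Id3, which encode PU.1, LXR alpha and ID3 and were chosen after their values were seen, had 0.19 ± 0.15, 0.07 ± 0.07 and 0.01 ± 0.12.

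Ligands and receptors that maintain Kupffer cells (14 tested) had 0 calls by edgeR, DESeq2 and limma-voom, 3 higher genes at an unadjusted p below 0.05 and a median of 0.08. Tgfbr1, a chain of the TGF-beta receptor, was at 26.6, 26.6, 24.3 and 24.6 CPM in normal chow 1 to 4 and at 32.7, 30.2, 29.1 and 28.9 CPM in high salt 1 to 4. Its groups did not overlap, with 0.24 ± 0.08 (edgeR adjusted p = 0.267). The ligand Tgfb1 had 0.34 ± 0.15 (edgeR adjusted p = 0.434). Csf1 and Il34, the ligands of CSF1R, were chosen after their values were seen. Csf1 was at 10.1 ± 1.02 CPM on normal chow and 11.6 ± 0.335 CPM on high salt with no overlap (0.20 ± 0.11, edgeR adjusted p = 0.539), and Il34 at 1.601 ± 0.249 CPM on normal chow and 1.53 ± 0.354 CPM on high salt with overlap.

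C1q chains and phagocytic receptors (10 tested) had 0 calls by edgeR, DESeq2 and limma-voom, 3 lower genes at an unadjusted p below 0.05 and a median of -0.11. The genes of this list, Fcgr2b among them, summed to 332 to 351 CPM on normal chow and to 308 to 324 CPM on high salt, without overlap. Mertk, a receptor for dying cells, was at 27.9, 34.3, 28.7 and 30.9 CPM in normal chow 1 to 4 and at 24.6, 25.9, 21.6 and 26.6 CPM in high salt 1 to 4. Its groups did not overlap, with -0.30 ± 0.10 (edgeR adjusted p = 0.238). Fcgr2b, an inhibitory Fc receptor that sinusoidal endothelium also makes, was at 90.1 ± 4.44 CPM on normal chow and 77.9 ± 4.76 CPM on high salt, without overlap (-0.21 ± 0.07, edgeR adjusted p = 0.312). The C1q chains C1qa, C1qb and C1qc, chosen after their values were seen, had -0.06 ± 0.08, 0.01 ± 0.08 and 0.01 ± 0.09.

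**Figure D4:**
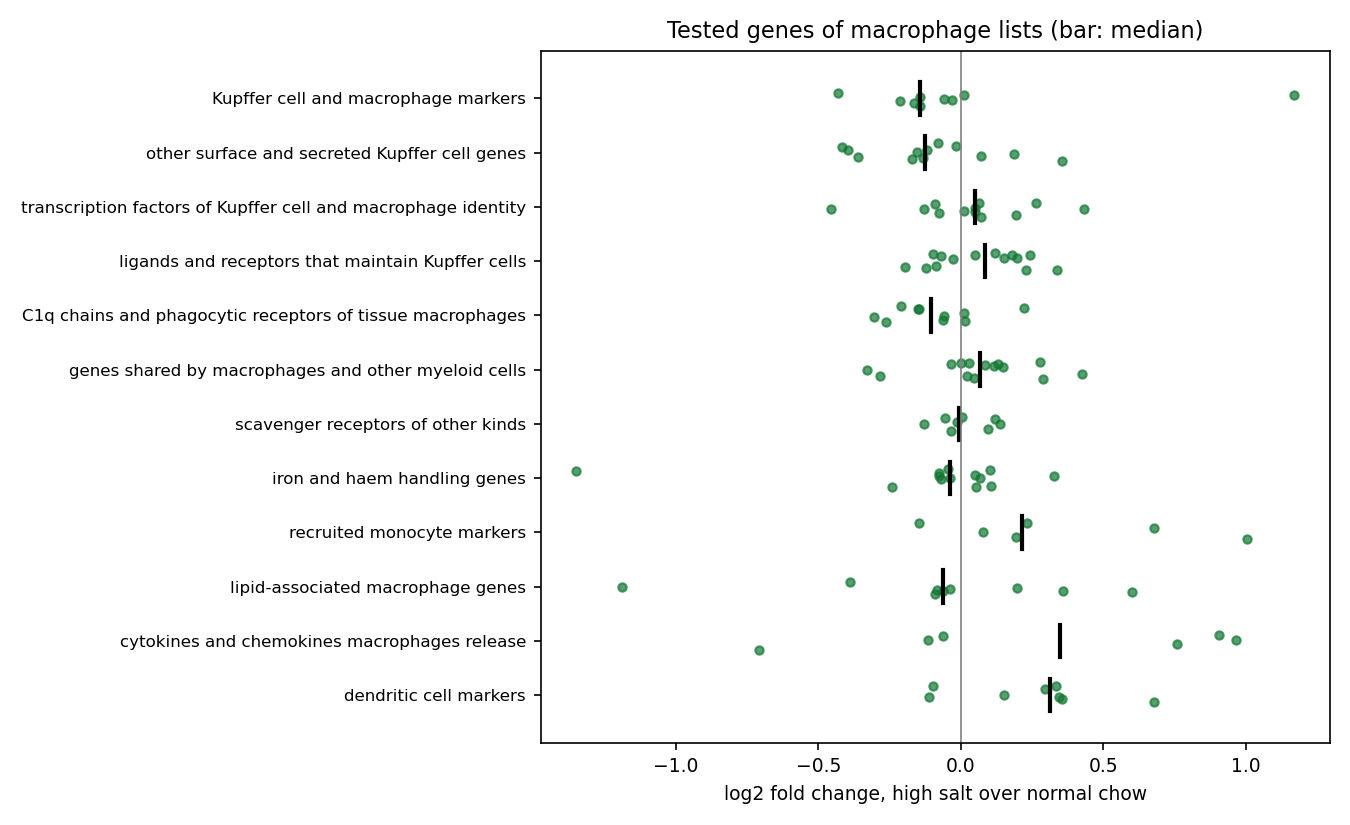
Log2 fold change, high salt over normal chow (horizontal axis), of the tested genes of 12 lists, 1 point per gene, with the list median. Marco stands at 1.17 in its list, and the other 8 genes lie between -0.43 and 0.01.

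Genes shared by macrophages and other myeloid cells (14 tested) had 0 calls by edgeR, DESeq2 and limma-voom, 1 lower gene at an unadjusted p below 0.05 and a median of 0.07. That gene was Mpeg1, a pore-forming protein of phagocytes, at 158, 117, 119 and 113 CPM in normal chow 1 to 4 and 94.6, 92.3, 109 and 108 CPM in high salt 1 to 4. The groups did not overlap and normal chow 1 was the highest (-0.33 ± 0.11, edgeR adjusted p = 0.267). Lyz2, lysozyme, had 0.28 ± 0.13 (edgeR adjusted p = 0.465).

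Among scavenger receptors of other kinds (8 tested) edgeR and limma-voom called 0, 0 had an unadjusted p below 0.05, and the median was -0.01. Scarb2, a lysosomal receptor, was at 189.5 ± 4.14 CPM on normal chow and 206 ± 9.87 CPM on high salt, without overlap (edgeR adjusted p = 0.599), and Scarb1, the HDL receptor, had 0.14 ± 0.12 (edgeR adjusted p = 0.755). DESeq2 called 1 gene of the list, Dmbt1, another protein with scavenger receptor cysteine-rich domains. It was under the filter of the edgeR fit, at 0.0579, 0.0579, 0 and 0.0552 CPM in normal chow 1 to 4 and 0, 3.23, 8.33 and 0.331 CPM in high salt 1 to 4. High salt 2 and 3 held nearly all of its reads, and the groups overlapped. Iron and haem genes (13 tested) had 0 calls by edgeR, DESeq2 and limma-voom, 0 genes at an unadjusted p below 0.05 and a median of -0.04. Tfrc, the transferrin receptor, had -1.35 ± 0.67 (edgeR adjusted p = 0.542) with a range from 10.6 to 78.9 CPM within normal chow, and Slc11a1, a metal transporter of phagosomes, had -0.24 ± 0.13 (edgeR adjusted p = 0.548).

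Of cytokines and chemokines that macrophages release, 6 of 14 passed the filter. edgeR and limma-voom called 0 and DESeq2 called 1, with an unadjusted p under 0.05 for 3 higher genes and 1 lower gene and a median of 0.35. Il1a, interleukin 1 alpha, was the gene DESeq2 called. It was at 3.19, 2.49, 2.37 and 3.04 CPM in normal chow 1 to 4 and at 5.27, 4.92, 4.40 and 4.19 CPM in high salt 1 to 4. All high-salt libraries lay above all normal-chow libraries, with 0.76 ± 0.17 (edgeR adjusted p = 0.0962, and 0.0253 by DESeq2). Ccl24, a chemokine for eosinophils, was at 2.70 ± 0.408 CPM on normal chow and 1.65 ± 0.414 CPM on high salt, lower without overlap (-0.71 ± 0.23, edgeR adjusted p = 0.267). Il1b and Ccl2, chosen after their values were seen, had 0.91 ± 0.30 (edgeR adjusted p = 0.275) and 0.97 ± 0.39 (edgeR adjusted p = 0.381). For Ccl2, which draws monocytes, normal chow 1 was at 1.39 CPM, above every high-salt library.

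Markers of recruited monocytes summed to 21.6 to 28.6 CPM on normal chow and to 24.0 to 35.2 CPM on high salt. Of the 6 tested, edgeR, DESeq2 and limma-voom called 0, and 1 had an unadjusted p under 0.05, in the higher direction, with a median of 0.21. Ly6c2, a surface protein of inflammatory monocytes, had 0.68 ± 0.40 (edgeR adjusted p = 0.585). Genes of lipid-associated macrophages (9 tested) had 0 calls by edgeR, DESeq2 and limma-voom, 1 lower gene at an unadjusted p below 0.05 and a median of -0.06. Trem2, a lipid receptor, was at 1.14 ± 0.439 CPM on normal chow and 0.493 ± 0.264 CPM on high salt (-1.19 ± 0.40, edgeR adjusted p = 0.286), and Cd9, a tetraspanin, had 0.20 ± 0.17.

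Markers of other blood cells are given beside these results. B cell and plasma cell markers summed to 21.6 to 61.2 CPM on normal chow and to 28.3 to 302 CPM on high salt, with the highest sum in high salt 2, the library with the highest Cd5l. Of the 8 tested, edgeR, DESeq2 and limma-voom called 0, 3 had an unadjusted p under 0.05, each higher, and the median was 1.41 (Cd79a 1.17 ± 0.51 and Jchain 1.93 ± 0.79). Without high salt 2, Cd79a had 0.60 and Jchain 0.91. Dendritic cell markers summed to 163 to 212 CPM on normal chow and to 175 to 277 CPM on high salt. Of the 8 tested, edgeR, DESeq2 and limma-voom called 0, 3 were higher at an unadjusted p below 0.05, and the median was 0.31. The log2 fold changes were above 0 for 6 and below 0 for 2. All 3 higher genes were class II genes, which macrophages and B cells share and which made most of these sums. Among them, H2-Ab1 had 0.35 ± 0.15 and H2-Aa 0.33 ± 0.14. Neutrophil markers summed to 3.76 to 4.80 CPM on normal chow and to 3.87 to 5.58 CPM on high salt, and of the 2 tested, S100a9 (0.42 ± 0.36) and Csf3r (-0.04 ± 0.21), edgeR, DESeq2 and limma-voom called 0, with 0 at an unadjusted p below 0.05. T and natural killer cell markers summed to 5.56 to 9.65 CPM on normal chow and to 4.03 to 8.59 CPM on high salt. Of the 6 tested, edgeR, DESeq2 and limma-voom called 0, 1 was lower at an unadjusted p below 0.05, and the median was -0.28. The log2 fold changes were below 0 for 4 and above 0 for 2, both T cell genes. Gzma (-1.68 ± 0.60) and Nkg7 (-0.75 ± 0.37) had low levels, at 1.34 ± 0.978 CPM and 1.06 ± 0.476 CPM on normal chow.

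Sinusoidal endothelial markers summed to 504 to 546 CPM on normal chow and to 443 to 492 CPM on high salt. These sums did not overlap, and Ehd3 was part of them, at 99.8 ± 11.5 CPM on normal chow and 71.7 ± 4.11 CPM on high salt. With Ehd3 left out, the sums of the diets overlapped. Of the 10 tested, edgeR and DESeq2 called 1, limma-voom 0. An unadjusted p under 0.05 was found for 3, each lower, with a median of -0.06. Of these 3, Fcgr2b is also counted among the lower genes of the list of C1q chains and phagocytic receptors. Ehd3, an endocytosis protein of that endothelium, fell by 0.48 ± 0.09 on the log2 scale (edgeR adjusted p = 0.0438). The adjusted p was 0.0553 to 0.156 when normal chow 2, normal chow 3, high salt 1, high salt 2, high salt 3 or high salt 4 was left out. It was 0.0957 with total-count scaling and 0.163 with the replicate number as a block. Hepatocyte markers (9 tested, median -0.02) had 1 call by edgeR and limma-voom and 3 by DESeq2, with an unadjusted p under 0.05 for 2 higher and 2 lower genes. The gene called by edgeR was Tat, tyrosine aminotransferase, which fell by 0.63 ± 0.09 on the log2 scale (edgeR adjusted p = 0.0192). For Tat the adjusted p was 0.0642 to 0.0661 without normal chow 2, normal chow 3 or high salt 1, and 0.0801 with the block. DESeq2 also called Cps1, a urea cycle enzyme with -0.58 ± 0.13 (edgeR adjusted p = 0.0945), and Cyp3a11, a cytochrome P450 with 0.73 ± 0.21 (edgeR adjusted p = 0.233), whose groups did not overlap. Apoa1, which encodes an HDL apolipoprotein, had 0.38 ± 0.15 (edgeR adjusted p = 0.401). These 3 were chosen after their values were seen.

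Stellate cell markers (9 tested, median 0.02) summed to 662 to 733 CPM on normal chow and to 624 to 723 CPM on high salt, with Reln at -0.21 ± 0.09 and Ecm1 at -0.21 ± 0.12. Bile duct markers (4 tested, median 0.13) summed to 4.34 to 7.18 CPM on normal chow and to 3.73 to 9.91 CPM on high salt, with Krt19 at 0.63 ± 0.44 (0.06 without high salt 3) and Sox9 at -0.33 ± 0.29 (-0.13 without normal chow 1). Red cell genes (5 tested, median -0.32) summed to 109 to 173 CPM on normal chow and to 91.7 to 135 CPM on high salt, with Hbb-bs at -0.37 ± 0.15 and Hba-a2 at -0.52 ± 0.26. In these 3 lists edgeR, DESeq2 and limma-voom called 0, and an unadjusted p under 0.05 was found for 1, 0 and 1 genes, each lower. The part of other cells in the values of the 9 genes was not tested.

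**Figure D5:**
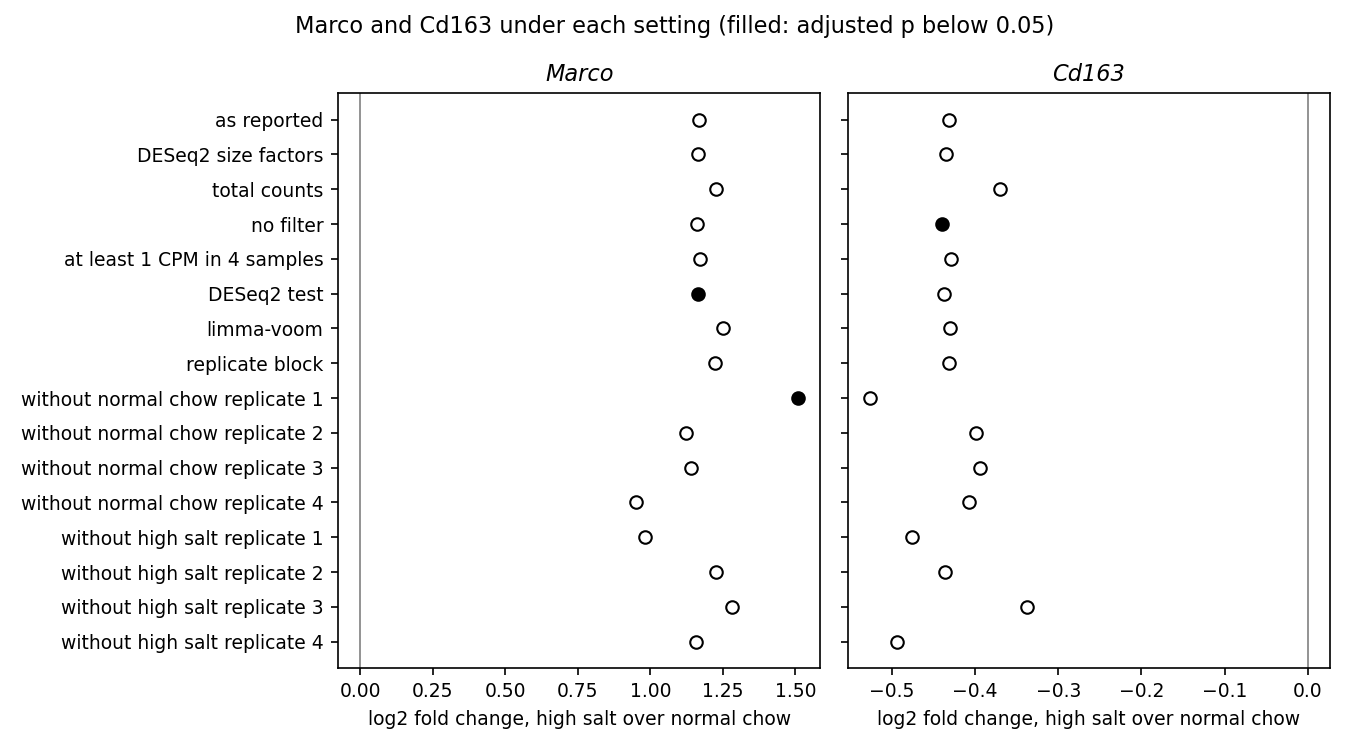
Log2 fold change of Marco and Cd163, high salt over normal chow (horizontal axis), in the reported edgeR fit and in each alternative, with filled points at an adjusted p below 0.05. Marco stays between 0.95 and 1.51 and Cd163 between -0.53 and -0.34.

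Across the 15 alternatives in the plot of settings, Marco was above 0 in all 15, with adjusted p from 0.00420 to 0.489. Cd163 was below 0 in all 15, with adjusted p from 0.0150 to 0.415.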

How the data were processed

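The authors deposited raw counts of reads for each gene and library as whole numbers, per the file headers. The authors' deposited table adds a linear fold change (a ratio of high salt over normal chow), the log2 of that ratio, and p-values before and after adjustment, used here only where named. The submitters' processing notes list HISAT2 2.1.0, StringTie 1.3.2d, HTSeq 0.6.0 and GRCm38. The Illumina TruSeq RNA kit was used for library construction, per the labels' protocols. The strand setting and annotation release were left unstated there. A single emptied line was not analysed here, and 23 symbols turned into dates were read from their gene IDs.

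Counts were fitted with edgeR 4.0.16 (R 4.3.3; TMM, filterByExpr, robust quasi-likelihood, diet as the only term). All 13341 genes that passed the filter entered the Benjamini-Hochberg adjustment, and a call is an adjusted p under 0.05 in a two-sided test. Standard errors came from the log2 fold change and its F statistic. Alternatives were DESeq2 1.42.0, limma-voom (limma 3.58.1), other scalings and filters, a replicate block and leaving out each library. The scripts were tested on simulated data. RPKM used GENCODE M21 exon lengths. Depth was 16620368 to 18639685 counts per library, and no pair of libraries within a group agreed within sampling noise (chi-square per degree of freedom 9.69 to 36.7).

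The 9 genes and all lists were chosen with earlier results of these data known. Besides the 9, the genes named are those called in each list (up to 3), or else up to 2 of smallest p, and the 5 nearest profiles, apart from those said to be chosen after their values were seen. Some genes that the rule would name are not reported here.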

Additional observations from a re-analysis of the deposited data

Results flagged for a closer look

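Of 130 groups of 4 values, 10 held a library that lay farther from the other 3 than Dixon's 95% critical value allows, and chance flags about 1 in 20 groups. Normal chow 1 did so in 4 genes. It was low for Cd163, at 28.6 CPM (the other 3 at 37.7 to 38.8 CPM), and for Fcna, at 15.6 CPM (the other 3 at 23.6 to 24.7 CPM). It was high for Mpeg1, at 158 CPM (the other 3 at 113 to 119 CPM), and for Ccl2, at 1.39 CPM (the other 3 at 0.364 to 0.521 CPM). High salt 3 was low for Siglec1, at 11.2 CPM (the other 3 at 15.8 to 16.7 CPM), and for Hmox1, at 11.1 CPM (the other 3 at 19.3 to 20.2 CPM). High salt 2 was high for Jchain, at 50.6 CPM (the other 3 at 5.75 to 12.9 CPM), for Clec1b, at 22.1 CPM (the other 3 at 15.4 to 15.9 CPM), and for Cyp3a11, at 4559 CPM (the other 3 at 2676 to 2883 CPM). Normal chow 3 was high for Bptf, at 39.0 CPM (the other 3 at 36.7 to 37.1 CPM).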

How the results depend on the processing

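Of the 9 genes, 0 were called in 12 of 15 alternatives and 1 in each of the other 3: Marco by DESeq2 and without normal chow 1, and Cd163 with no filter on low counts (0 to 1 when 1 library was left out). Their median log2 fold change stayed between -0.16 and -0.06. The 40 genes called over the whole table became 217 by DESeq2, 15 by limma-voom, 220 with no filter and 4 to 57 when 1 library was left out. The low counts were 4 and 11 on leaving out normal chow 2 or 3, and 5 and 18 on leaving out high salt 1 or 2. The split was 20 higher and 20 lower as reported, 21 and 11 with total-count scaling, 89 and 131 with no filter, and 82 and 135 by DESeq2. The 2 calls in the other lists became 1 with total counts and by limma-voom, 5 with no filter, 6 by DESeq2 and 0 to 3 when 1 library was left out. With the replicate number as a block, 11 genes were called over the whole table (8 higher and 3 lower), 0 in the other lists and 0 of the 9. Deviations of same-numbered libraries correlated at -0.195 to 0.0865, and 1 of 8 libraries correlated best with its own number. The labels state no pairing, and 4 libraries per group are too few for these correlations to decide whether one exists. Signs near 0 turned with total counts for Timd4 (0.00220), Csf1r (0.0299), Csf3r (0.0242), Clec1b (0.0475), and for Cd5l with limma-voom (-0.00138) and in the fit with the replicate block (-0.00159). Leaving out 1 library gave log2 fold changes on both sides of 0 for Cd5l (-0.124 to 0.0635), Il34 (-0.184 to 0.0702), Clec1b (-0.164 to 0.0786), C1qc (-0.0370 to 0.0559), Id3 (-0.117 to 0.0698), Csf3r (-0.163 to 0.0552), C1qb (-0.0336 to 0.0573), Timd4 (-0.113 to 0.0111), Csf1r (-0.101 to 0.0688) and Hmox1 (-0.00469 to 0.237). A left-out library moved the value by over 1.5 times, with the sign kept, for the genes with such values in the report and for Adgrg6 (-0.06 without high salt 3), Atp8a1 (-0.15 without high salt 3), Bptf (-0.03 without high salt 3), C1qa (-0.02 without high salt 3), Ccl2 (1.61 without normal chow 1), Cd9 (0.06 without normal chow 2), Ecm1 (-0.11 without high salt 3), Gmeb1 (-0.06 without high salt 3), Gzma (-1.11 without normal chow 3), H2-Ab1 (0.19 without high salt 2), Hba-a2 (-0.24 without normal chow 4), Irf8 (0.17 without normal chow 4), Ly6c2 (0.44 without normal chow 3), Lyz2 (0.14 without high salt 2), Mpeg1 (-0.21 without normal chow 1), Nkg7 (-0.44 without normal chow 3), Nr1h3 (0.03 without high salt 3), S100a9 (0.02 without high salt 2), Scarb1 (0.03 without normal chow 3), Slc11a1 (-0.37 without high salt 1), Spi1 (0.11 without normal chow 3) and Tfrc (-0.64 without normal chow 2), each with its farthest value. The cause was not tested. Marco rests on 71 to 389 reads per library.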

Other observations

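Profiles close to that of Marco alone were also looked up, a choice made after its values were seen. Leaving out predicted gene models, the 5 nearest of the 13341 tested genes were Tet3 (0.210), Ctdp1 (0.357), Crip2 (0.361), Bmf (0.372) and Ttc26 (0.375), by root mean square distance. The nearest of the other 8 markers was Timd4, at 1.28.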
